A study of Mus musculus with 2 samples.

Results

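C1q-high macrophages are the cells of mouse pancreatic tumors in which genes of the complement protein C1q stood clearly above their lowest level. A cell was taken when at least 2 of C1qa, C1qb and C1qc were more than 1 unit above the gene's lowest value in the Ahr fl/fl library, and fewer than 2 of the epithelial keratin genes Krt8, Krt18 and Krt19 were. The unit is 1 SD of a gene over all cells. The rule took 709 of 9773 cells, of which 426 of 5196 were in the Ahr fl/fl library and 283 of 4577 in the Ahr cKO library. Both libraries came from whole tumors that grew for 14 days in the pancreas after implantation of MT4, an organoid line of the KPC mouse model of pancreatic adenocarcinoma. The mice were C57/BL6 with floxed Ahr alleles (Ahr fl/fl), and the cKO mice carried LysM-Cre in addition. Both genotypes therefore had the floxed alleles, and the age and sex of the mice are not given in the sources used here. Tumors of 3 mice per genotype were pooled, and live cells were sorted by DAPI, so each genotype is 1 library without replicates. LysM-Cre acts from the Lyz2 locus in macrophages, monocytes and neutrophils, so it is not limited to the cells described here.

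C1q is the recognition protein that starts the classical complement pathway, and its A, B and C chains come from neighbouring genes. Macrophages make most of it. Macrophages with high C1q in tumors are known for engulfing dead cells, for lipid handling and for antigen presentation by MHC class II. The product of Ahr is the aryl hydrocarbon receptor, which regulates transcription and enters the nucleus when it binds small molecules such as tryptophan metabolites. The comparison asks what these macrophages look like when Ahr is deleted in myeloid cells.

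The C1q genes lie side by side on the minus strand of chromosome 4 in the GENCODE annotation of GRCm38. C1qb spans positions 136880129 to 136886187, C1qc 136889804 to 136893065 and C1qa 136895917 to 136898803. RefSeq promoter windows (GRCm38.p6) of 250 bases before the gene's start in RefSeq are shown for C1qb, at chr4:136886201-136886450, and C1qc, at chr4:136892915-136893164, because the members were chosen by the joint level of these genes. RefSeq starts C1qc further inside the gene than GENCODE does, so part of the C1qc window lies within the GENCODE gene. Both are written 5′ to 3′ along the gene, and capitals mark GAGGAA or its reverse complement TTCCTC, the core that PU.1, a macrophage transcription factor, is known to bind.
C1qb: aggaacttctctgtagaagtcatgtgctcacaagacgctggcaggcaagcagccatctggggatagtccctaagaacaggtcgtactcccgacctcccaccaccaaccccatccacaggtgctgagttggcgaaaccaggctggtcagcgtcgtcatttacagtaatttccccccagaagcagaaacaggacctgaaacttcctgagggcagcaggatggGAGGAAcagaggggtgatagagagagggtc
C1qc: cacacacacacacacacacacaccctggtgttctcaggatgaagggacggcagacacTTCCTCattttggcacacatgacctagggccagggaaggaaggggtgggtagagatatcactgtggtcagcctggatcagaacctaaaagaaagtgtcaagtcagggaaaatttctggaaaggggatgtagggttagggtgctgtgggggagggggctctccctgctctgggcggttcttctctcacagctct
The C1qb window held GAGGAA and the C1qc window TTCCTC, each at 1 place. Either letter string was found in 23.3% of 32851 promoter windows of this length. GCGTG or CACGC, the core bound by the aryl hydrocarbon receptor, was in neither window and in 28.2% of all windows. Apoe is on chromosome 7 at 19696109 to 19699188, and Ahr on chromosome 12 at 35497974 to 35535038.

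The values are scaled scores for 2000 genes, and the number of molecules behind them is unknown. In the fl/fl library each gene kept a lowest value shared by most cells, called its zero level here. Members of that library had a median of 149 genes above the zero level (5th to 95th percentile 55.25 to 377.75), against 108 over all fl/fl cells. For the median gene, 15.2% of cKO cells lay below that level, so the cKO scale had been moved. A step such as batch integration was inferred from the values and is not given in the sources used here. Of the cell barcodes, 656 occurred in both libraries, or 12.6% of fl/fl cells and 14.3% of cKO cells. Cells with the same barcode had a median correlation of 0.43 across genes, against 0.071 for other pairs of these cells. Among the C1q-high macrophages, 37 cells of each library had such a barcode, and 24 barcodes belonged to a member in both. Without them 389 fl/fl and 246 cKO members remained, and values without them are given beside the results.

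The rule's own genes are described without a test. In fl/fl members the value above the zero level was 2.83 ± 2.15 for C1qa (mean ± SD over 426 cells, median 2.34, highest 10.3), 2.97 ± 1.72 for C1qb and 2.75 ± 2.12 for C1qc. In cKO members it was 3.34 ± 2.32 for C1qa (SD over 283 cells), 3.5 ± 2.10 for C1qb and 3.44 ± 2.28 for C1qc. The spread between cells was larger than the difference between the libraries for every chain. All 3 C1q genes passed the level of 1 in 268 of 426 fl/fl members and 208 of 283 cKO members, and exactly 2 passed in 158 and 75. The deciding value, the second highest of the 3, was 1.006 in the fl/fl member nearest the level and 0.998 in the nearest cell outside. In the cKO library these were 1.013 and 0.991. A level of 1.2 would have dropped 39 fl/fl and 13 cKO members, and a level of 0.8 would have added 50 and 25 cells, so the members are a range of C1q values rather than a separated type. The keratin limit kept out 8 fl/fl and 2 cKO cells.

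Apoe, which encodes the lipid carrier apolipoprotein E and was not part of the rule, was above zero in 87.3% of fl/fl members (exact 95% interval 83.8% to 90.3%). It was above zero in 8.27% of fl/fl T cells, a cell type that should lack it, and that share is taken as background. The median number of genes above zero was 102 in T cells. Csf1r, the receptor that macrophages need for survival, was above zero in 59.6% of members and 1.36% of T cells. For the Fc receptor gene Fcgr1 these shares were 51.4% and 0.566%. Of 15 macrophage markers 12 were measured, and for each 5% or more of fl/fl members lay above zero. The rule itself set this for the 3 C1q genes among them. The same 5% bar was passed by 6 of 7 monocyte, 5 of 11 neutrophil and 4 of 6 erythroid markers, so passing it does not mark a cell type. Every other list with measured markers had at most 1 that passed.

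Monocyte markers were found in part of the members, and markers of other types in few. At least 2 monocyte markers above 1 were found in 101 fl/fl members (23.7%) and 66 cKO members (23.3%), with a median summed value of 1.96 and 1.94 over 7 genes. The T cell list had 17 such fl/fl members (3.99%) and 1 cKO member, the neutrophil list 6 and 12, and the dendritic cell list 0 and 3. For T cells the median summed value over members was 0 in both libraries, with highest values of 14.4 in fl/fl and 16.3 in cKO. Of 9 dendritic cell markers, 3, among them Flt3 and Siglech, were at zero in every fl/fl member. NK cell, B-lineage, epithelial, fibroblast, erythroid, mast cell and acinar lists had at most 3 such members in either library. No endothelial marker was measured. Members that carried at least 2 T cell, B-lineage, neutrophil or NK cell markers above 1 were treated as possible doublets. They numbered 26 in fl/fl (6.10%) and 14 in cKO (4.95%) and were kept.

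On the deposited UMAP, 390 fl/fl members (91.5%) and 269 cKO members (95.1%) lay in 1 connected group of cells. The myeloid genes Lyz2, Ms4a6c, Tgfbi, Ctsc and Csf1r were among those leading this group. The members in this group filled one end of it, and most C1q-low monocytes lay at the other end. Of the members outside it, 10 fl/fl and 7 cKO cells lay in a group led by T cell genes. Another 6 fl/fl members lay in a keratin group and 3 in a neutrophil group, while 11 fl/fl and 3 cKO members joined no group.

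**Figure D1:**
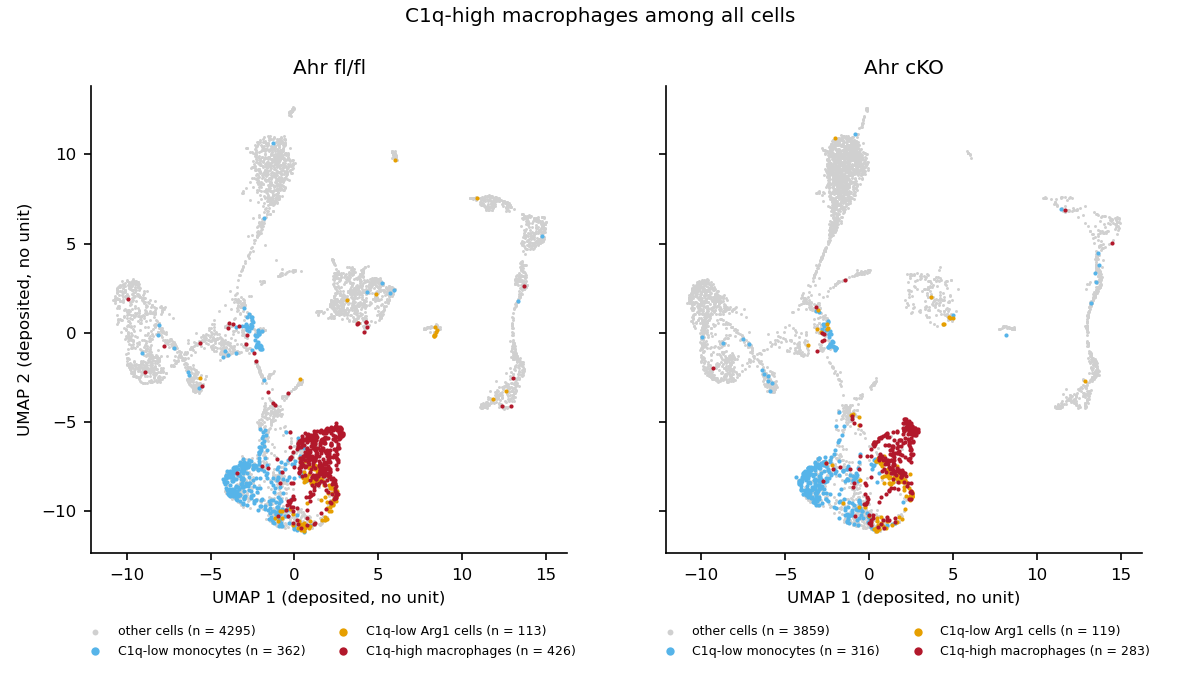
Deposited UMAP coordinates (both axes without unit) of all cells of the Ahr fl/fl library (left) and the Ahr cKO library (right). Each point is a cell, and red points are the 426 and 283 C1q-high macrophages. Most of them lie at one end of the lower group, next to C1q-low Arg1 cells (orange) and apart from most C1q-low monocytes (blue).

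C1q-high macrophages made up a smaller share of the cKO library. They were 8.20% of fl/fl cells (exact 95% interval 7.47% to 8.98%) and 6.18% of cKO cells (5.50% to 6.92%). The difference was -2.02 points (95% interval -3.04 to -0.99), and the interval covers counting error only, so mice and dissection are not in it. It was -2.29 points without the shared barcodes (8.57% and 6.27%). The size depended on how strictly the cells were chosen. With all 3 C1q genes required the difference was -0.61 points (5.16% and 4.54%), and with Apoe above 1 required as well it was -0.0798 points (3.77% and 3.69%). Inside the myeloid group of the UMAP, members were 25.7% of fl/fl cells (23.5% to 27.9%) and 22.2% of cKO cells (19.9% to 24.6%). The other cells of the libraries differed as well, and a share depends on them. A group led by the B-lineage genes Cr2 and Iglc3 had 616 fl/fl and 1298 cKO cells, and a keratin group 768 and 180. Among cells with fewer than 2 keratins above 1, members were 9.18% and 6.38%. How much of the difference goes with the other cell types was not tested.

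In the fl/fl library the members were set beside cells with arginase and low C1q (C1q-low Arg1 cells, 113 cells with Arg1 above 1 and none of the C1q genes, Csf3r and Cxcr2 above 1). They had higher values of antigen presentation genes and Apoe, and lower values of hypoxia genes, Nos2 and Thbs1. All 113 comparison cells had Arg1 above 1, against 41.3% of the members, so C1q and Arg1 differ together in this comparison. Some genes named below, among them Aif1, Selenop and H2-Eb1, also differed between members with and without Arg1. These contributions were not separated. Differences are in mean scaled value, members minus Arg1 cells, and are a description of 1 library. Of 1991 genes, 30 were at least 0.5 higher (1.51%) and 37 at least 0.5 lower (1.86%). Genes of the rules were left out. Without shared barcodes, which 23.0% of these Arg1 cells had, the counts were 31 and 34.

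Apoe was 1.43 higher in members than in Arg1 cells, with a mean of 1.94 against 0.51. The MHC class II chain genes H2-Aa, H2-Ab1 and H2-Eb1, which present peptides to CD4 T cells, were 1.24, 1.24 and 1.16 higher. H2-Aa was above zero in 90.6% of members (87.4% to 93.2%), 63.7% of Arg1 cells (54.1% to 72.6%), 47.0% of monocytes and 18.2% of T cells. Of 5 MHC class II genes measured, 4 were at least 0.5 higher, among them H2-DMb1 (0.68), which helps load peptides. The median was 1.16, against 0 over all genes, of which 1.51% were at least 0.5 higher. Ms4a7, a membrane protein gene of tissue macrophages, was 1.23 higher and was above zero in 30.8% of members, 7.08% of Arg1 cells and 0.340% of T cells. Aif1, which encodes the macrophage actin-binding protein IBA1, was 1.08 higher.

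Of 19 myeloid chemokine genes 4 were at least 0.5 higher in members and 4 lower, with a median of -0.10. Over all 1991 genes 1.51% were higher and 1.86% lower. In the cKO library 3 chemokine genes were higher and 4 lower, against 2.06% and 2.31% of all genes. Among those higher in fl/fl members, Cxcl16, a chemokine that also binds oxidised lipid, was 1.04 higher. It was above zero in 59.2% of members and 34.5% of Arg1 cells. Ccl8, a chemokine of tissue macrophages, was above zero in 17.4% of members (13.9% to 21.3%) and 0.885% of Arg1 cells (0.0224% to 4.83%). Its share in T cells was 0.566%. Selenop, encoding a selenium transport protein, was 0.89 higher, Axl, a receptor for engulfing dead cells, 0.77 higher, and Gatm, an enzyme of creatine synthesis, 0.70 higher. The mannose receptor gene Mrc1 was above zero in 24.6% of members (20.6% to 29.0%) and 10.6% of Arg1 cells (5.61% to 17.8%).

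On the lower side, 6 of 10 hypoxia and glycolysis genes were at least 0.5 lower in members, with a median of -0.59. Over all 1991 genes 1.86% were that much lower. Ero1l, an oxidase of protein folding, was -0.97, the glycolysis gene Pgk1 -0.91, the stress gene Ndrg1 -0.86 and the vessel growth factor gene Vegfa -0.73. Ero1l was above zero in 36.2% of members (31.6% to 40.9%) and 64.6% of Arg1 cells (55.0% to 73.4%). Nos2, the inducible nitric oxide synthase gene, was -1.08, with 7.98% of members and 23.9% of Arg1 cells above zero. The matrix protein gene Thbs1 was -0.99, Gpnmb, a gene of lipid-laden macrophages, -0.95, the protease gene Adam8 -0.94, the heme oxygenase gene Hmox1 -0.87 and the scavenger receptor gene Msr1 -0.78. Of the lipid-associated macrophage list, Spp1 was -0.74 while Trem2, a lipid receptor gene, was 0.57, so members of that list lay on both sides.

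Depth differed little between these sets, with medians of 149 and 162 genes above zero. Cells between the 25th and 75th percentile of members for this number were then compared (212 members, 58 Arg1 cells). Among them 30 genes were at least 0.5 higher (1.51%) and 63 lower (3.16%). Nos2 was then -1.70, Adam8 -1.46, Apoe 1.2 and H2-Aa 1.19. In the cKO library, 41 of 1991 genes were at least 0.5 higher (2.06%) and 46 lower (2.31%) against 119 Arg1 cells. There the hypoxia and glycolysis median was -0.70 with 7 of 10 genes lower, and 4 of 5 MHC class II genes were higher with a median of 0.96.

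Against C1q-low monocytes (362 fl/fl cells with Ccr2 and another monocyte gene above 1 and neither Arg1 nor any C1q gene above 1), the members were higher in many more genes than they were lower. Of 1986 genes, 76 were at least 0.5 higher (3.83%) and 15 at least 0.5 lower (0.755%). Barcodes in both libraries made up 41.4% of these monocytes, and without them the counts were 77 and 13. Apoe was 1.63 higher, H2-Ab1 1.36, H2-Aa 1.33 and Cxcl16 1.30. Lgmn, a lysosomal protease gene, was 1.27 higher, the Fc receptor gene Fcgr4 1.19, and C3ar1, the receptor of complement fragment C3a, 1.09. Of the 4 lysosome genes measured 3 were higher, and the median was 0.73, against 0 over all genes. Of 12 adhesion and matrix contact genes 7 were higher, and of 7 scavenger receptor genes 4.

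The genes lower than in monocytes included several known from blood monocytes. Lyz2, encoding lysozyme, was -1.17, Ms4a6c -1.04, the haptoglobin gene Hp -0.86 and the clotting factor gene F13a1 -0.74. The transcription factor genes Nr4a1 (-0.55) and Klf4 (-0.54) were lower too, and both are also in the dissociation and stress list. Of 11 genes of that list 2 were lower and none higher, against 0.755% and 3.83% of all genes. Lyz2 was nevertheless above zero in 90.8% of members and 92.5% of monocytes, with 12.8% in T cells. Hp was above zero in 16.4% of members (13% to 20.3%) and 71.8% of monocytes (66.9% to 76.4%). Ahr was above zero in 19.7% of members (16.0% to 23.8%), 15% of Arg1 cells, 16.6% of monocytes and 9.29% of T cells (7.45% to 11.4%).

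**Figure D2:**
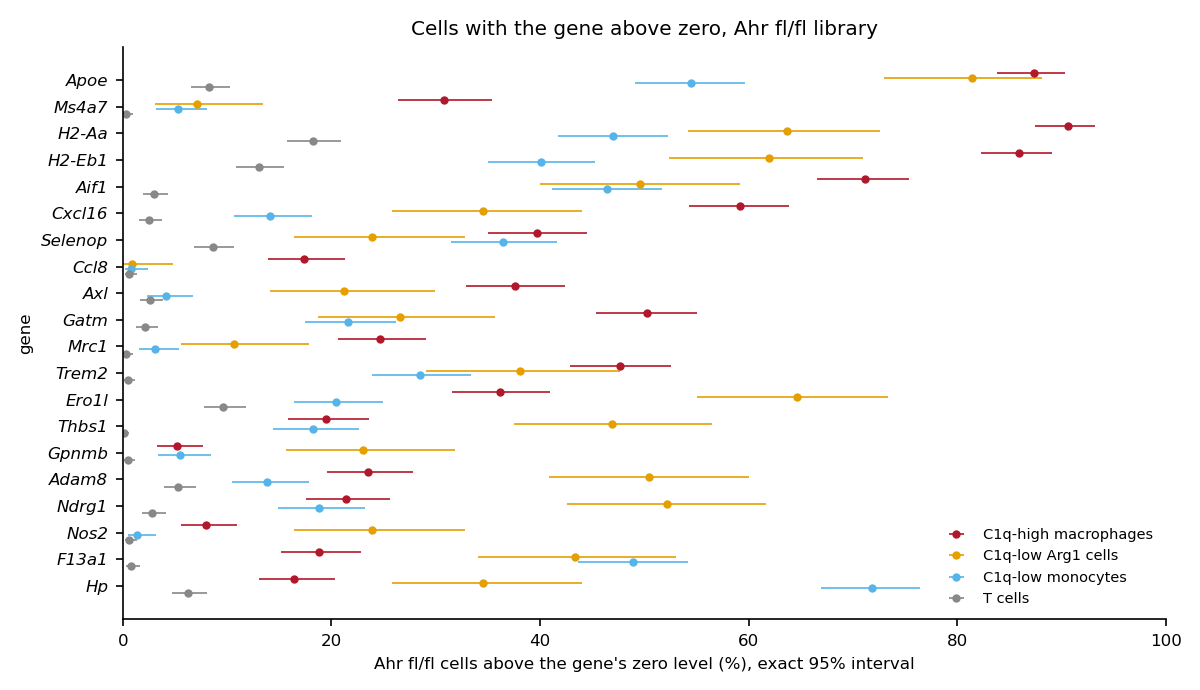
Percent of Ahr fl/fl cells (x axis) above each gene's zero level (genes on the y axis), with exact 95% intervals for counting error, in 426 C1q-high macrophages, 113 C1q-low Arg1 cells, 362 C1q-low monocytes and T cells. H2-Aa reached 90.6% in the macrophages, Nos2 reached 23.9% in Arg1 cells and Hp reached 71.8% in monocytes.

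The C1q-high macrophages were not uniform. Arg1, whose enzyme breaks down arginine, was above 1 in 176 of 426 fl/fl members (41.3%, 36.6% to 46.2%) and in 112 of 283 cKO members (39.6%, 33.8% to 45.5%). The genes named for this split were chosen after their values were seen. In fl/fl members with Arg1, 40 of 1993 genes were at least 0.5 higher (2.01%) and 18 lower (0.903%) than in the other members. Fn1, the fibronectin gene, was 2.15 higher (mean 2.59 against 0.44) and was above zero in 84.1% against 37.2% of cells. The secreted and uptake genes Ccl6 (1.46), Ccl24 (1.02), Tgm2 (1.22) and Lrp1 (1.06) were higher too. Slc7a2, an importer of arginine, was 1.27 higher, and Ltc4s, an enzyme of leukotriene synthesis, 1.40 higher.

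Members without Arg1 had higher values of Ccl8, Aif1, Selenop and MHC class II genes. Ccl8 was -1.16 in members with Arg1 relative to the others, Aif1 -1.11, Selenop -0.96, the T cell chemokine gene Cxcl9 -0.86, the DNA-digesting enzyme gene Dnase1l3 -0.82 and H2-Eb1 -0.77. Ccl8 was above zero in 4.55% of members with Arg1 and 26.4% of those without. H2-Aa was lower in level (-0.64) but above zero in 90.9% and 90.4%, so nearly all members of either kind carried it.

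In the cKO library, 40 genes were at least 0.5 higher (2.01%) and 33 lower (1.66%) by the same split. In both libraries 23 genes were higher and 13 lower, and 1 gene called in fl/fl had the opposite sign in cKO. Fn1 was 2.41 higher there, Ltc4s 2.05 and Slc7a2 1.36, while Ccl8 was -0.48. Cells with Arg1 had more genes above zero in the fl/fl library, a median of 199 against 132.5, and 5 of them against 32 of the others had a shared barcode. Among fl/fl members of middle depth (80 with and 132 without Arg1), Fn1 was 1.88 higher, Ccl8 -0.80 and H2-Eb1 -0.73.

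**Figure D3:**
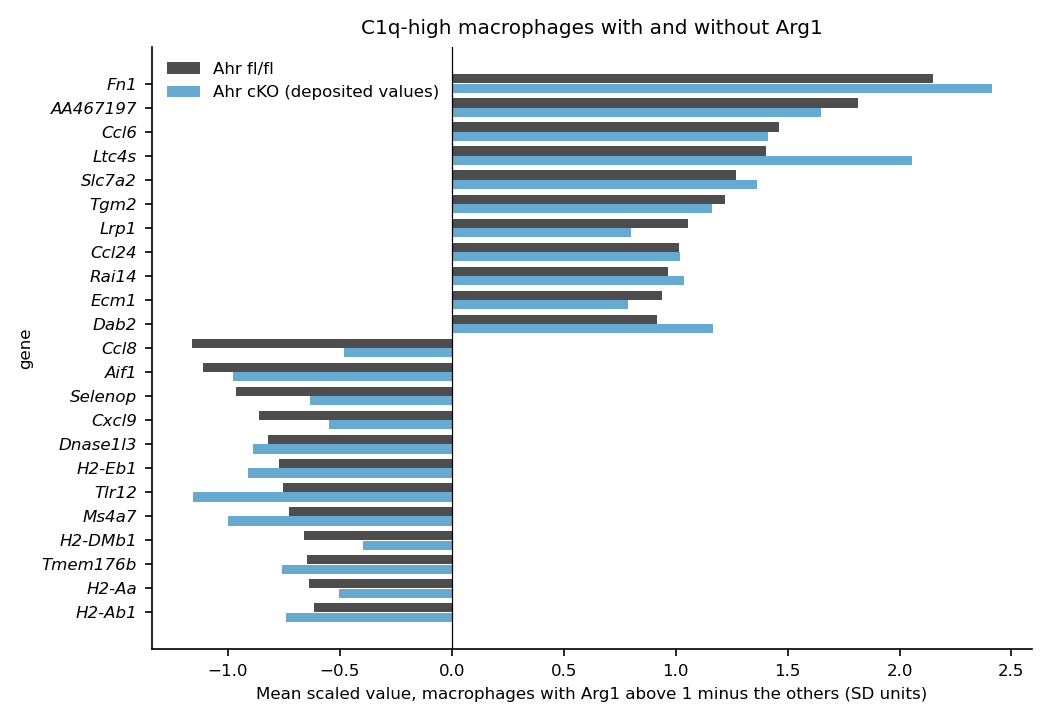
Difference in mean scaled value (x axis, SD units) between C1q-high macrophages with Arg1 above 1 and those without, for genes among the highest and lowest of the Ahr fl/fl library (y axis), with the Ahr cKO library beside it. Fn1 reached 2.15 and 2.41, Ccl8 -1.16 and -0.48, and each gene drawn had the same sign in both libraries.

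The amount of C1q also varied. When fl/fl members were parted at the median of their summed C1q value (213 cells each), the upper part had more Apoe (mean 2.98 against 0.90), Ms4a7 (2.05 against 0.56) and Ccl8 (1.46 against 0.24). It also had more Abca1, a cholesterol exporter gene (1.27 against 0.36), and Olfml3 (1.07 against 0.03). Fn1 (1.02 against 1.64), Ccl9 (0.69 against 1.36) and S100a10 (0.37 against 0.86) were lower. Across the 426 cells, which share 1 library, the summed C1q value had a Pearson correlation of 0.56 with Apoe, 0.48 with H2-Aa, 0.35 with Vcam1 and -0.19 with Arg1. Its correlation with the number of genes above zero was -0.035.

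Between the libraries, cKO members had higher deposited values of Vcam1, Apoe and lysosome and iron genes, and lower values of Ccr2 and C3ar1. All differences are cKO minus fl/fl in mean scaled value, not folds, and with 1 library per genotype none has a replicate check. For each gene named, the SD over cells was larger than the difference. Genes that 5% or more of the fl/fl members had above zero numbered 696. Of these, 118 were at least 0.1 higher (17.0%) and 79 at least 0.1 lower (11.4%), and the median over all 696 was 0.00. With values held between 0 and the 99th percentile, 160 were higher and 14 lower. No fl/fl value lies below 0, so the lower limit can raise cKO values only. Part of that shift is therefore built in. Because the cKO scale had been moved, a second value is given where the gene was above zero in under 40% of fl/fl members. For it, the 0.3 quantile of the gene over the 30 most similar cKO cells was subtracted as a local zero level. The subtraction was made in cKO members only, and fl/fl values were left unchanged. A level above 0, which may hold real expression, lowers the cKO mean alone, and a level below 0 raises it alone. A change of sign can therefore come from the step itself. On that scale 126 of 570 genes were at least 0.1 higher (22.1%) and 51 lower (8.95%). Of these 570 genes, 49 were higher and 13 lower on both scales, and 21 changed sign with at least 0.1 on either side.

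Vcam1, an adhesion protein gene on chromosome 3 (116109949 to 116129688), had the highest difference outside the C1q genes. Its mean was 1.11 ± 2.32 (SD over 283 cells) in cKO and 0.41 ± 1.54 (426 cells) in fl/fl, a difference of 0.70, and 0.82 without shared barcodes. It was above 1 in 25.4% of cKO members (20.5% to 30.9%) and 8.69% of fl/fl members (6.19% to 11.8%), and above zero in 1.25% of fl/fl T cells. Apoe had a mean of 2.57 ± 2.86 and 1.94 ± 2.65, a difference of 0.63 (0.78 without shared barcodes), and was above 1 in 59.7% (53.7% to 65.5%) and 46.0% (41.2% to 50.9%). Hebp1, a heme-binding protein gene, differed by 0.62 (0.73 without shared barcodes), with 24.4% and 12% of members above 1. Next came the transferrin gene Trf (0.58), the lysosomal protease gene Lgmn (0.53), the vesicle membrane gene Cd63 (0.53), the proteoglycan gene Sdc3 (0.49), Cd81 (0.46), the lysosomal protease gene Ctsc (0.43) and the mitochondrial gene Etfb (0.43). With the local zero level subtracted, Vcam1 was 0.28, Hebp1 0.31, Trf 0.36, Cd63 0.21 and Etfb 0.30. For Apoe, Lgmn, Sdc3, Cd81 and Ctsc no such value exists, since 40% or more of fl/fl members had them. The cKO members also had higher values of the C1q genes that chose them, such as 3.34 against 2.83 for C1qa. Among fl/fl members the summed C1q value correlated with Apoe (0.56) and Vcam1 (0.35). How much of the differences between libraries goes with the C1q level was not tested.

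The Vcam1 and Hebp1 differences were smaller without a few cells. Spic, a transcription factor gene, and Slc40a1, which encodes the iron exporter ferroportin, are known with Vcam1 from the iron-recycling macrophages of spleen and liver. Either gene was above 1 in 24 of 283 cKO members (8.48%, 5.51% to 12.4%) and in 7 of 426 fl/fl members (1.64%, 0.663% to 3.36%). Among cells that were not members it was 4.31% in cKO and 3.27% in fl/fl. These 24 cells, of which 3 had a shared barcode, had a mean Vcam1 value of 5.19, against 0.73 in the other cKO members, and a mean Hebp1 value of 4.21 against 0.80. Etfb (3.16 against 0.59), Axl (4.07 against 1.31), Csf1r (4.06 against 1.40), Hmox1 (3.07 against 0.54) and Selenop (3.34 against 1.26) were higher in them as well, and Apoe was not (1.90 against 2.63). Cela1, an elastase gene of pancreatic acinar cells, was also higher (3.19 against 0.36), and its part in the result was not tested. The 7 fl/fl cells did not show the same for Vcam1, with a mean of 0.48 against 0.41 in the other fl/fl members, while Hebp1 was 2.01 against 0.45. At least 2 of Spic, Slc40a1, Vcam1 and Hebp1 were above 1 in 45 cKO members (15.9%, 11.8% to 20.7%) and 8 fl/fl members (1.88%, 0.814% to 3.67%). In the cells that were not members the shares were 0.233% and 0.419%. Of the 45 cKO members, 42 had Vcam1 and 40 had Hebp1 above 1, and of the 8 fl/fl members 6 and 7. Both genes were among the highest cKO differences, so this count repeats those differences and is no separate evidence. The genes and the cells were chosen after the values were seen, and the tissue these cells came from was not tested.

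With the Spic or Slc40a1 cells left out of both libraries, the Vcam1 difference was 0.32, Hebp1 0.35 and Etfb 0.21. Apoe was then 0.71, Lgmn 0.52, Cd63 0.58, Trf 0.50, Ctsc 0.38 and Sdc3 0.36. With the local zero level subtracted too, Vcam1 was -0.04 and Hebp1 0.08, while Trf and Cd63 were both 0.28. The subtracted Vcam1 level was itself higher around these cells, with a mean of 1.00 against 0.36 around the other cKO members. The share of members was 2.41 points lower in cKO without them.

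**Figure D4:**
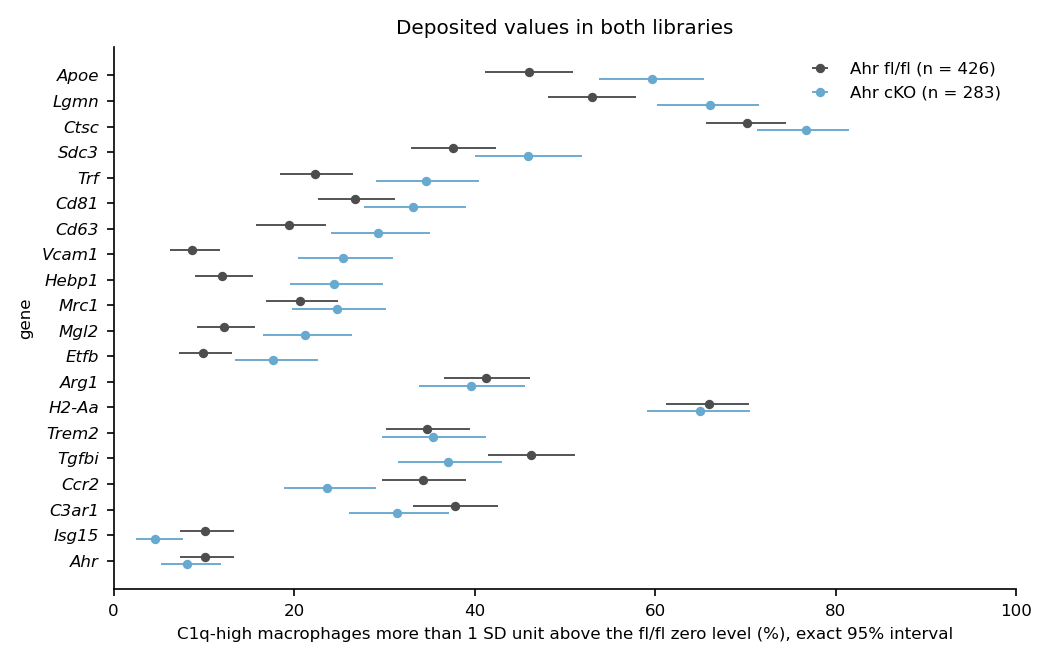
Percent of C1q-high macrophages (x axis) with a deposited value more than 1 SD unit above the fl/fl zero level, for 20 genes (y axis), in 426 Ahr fl/fl (grey) and 283 Ahr cKO (blue) cells, with exact 95% intervals for counting error. Vcam1 stood at 8.69% and 25.4%, Apoe at 46.0% and 59.7%, Ccr2 at 34.3% and 23.7%, and Arg1 at 41.3% and 39.6%.

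Of 18 lysosome genes listed only 4 were measured, and these were higher. All 4 were at least 0.1 higher, with a median of 0.37, against 0.00 over all 696 genes and 17.0% of them called higher. These were Lgmn, Ctsc, Creg1 (0.30) and the protease gene Ctsl (0.29), and the median was 0.36 without the Spic or Slc40a1 cells and 0.44 without shared barcodes. None had a value with the local zero level subtracted. Of 7 iron and heme genes 4 were higher and none lower, with a median of 0.26. Beside Hebp1 and Trf these were Hmox1 (0.27) and Hfe, a regulator of iron uptake (0.26). Without the Spic or Slc40a1 cells that median was 0.06, Hmox1 was 0.06 and Hfe 0.17.

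Receptors for uptake were mixed between the scales. Of 6 scavenger and engulfment receptor genes 5 were higher by deposited values, against 17.0% of all genes, with a median of 0.18. That median was 0.0394 over the 4 with the local zero level subtracted, 0.0372 with Apoe above 1 and 0.0774 with all 3 C1q genes required. The mannose receptor gene Mrc1 was 0.37, or 0.27 with the local zero level subtracted, and Axl was 0.37, or -0.12. Without the Spic or Slc40a1 cells the deposited difference was 0.14 for Axl, 0.29 for Mrc1 and 0.22 for Selenop. Among 11 C-type lectin genes 5 were higher and 1 lower (median 0.08), and on the other scale 6 of 10 were higher and 1 lower (median 0.15). Mgl2, a galactose-binding lectin gene, was 0.42, or 0.19 with the local zero level subtracted. All 3 Fc receptor genes were higher, led by Fcgr4 (0.24), with a median of 0.12, which was -0.0022 when all 3 C1q genes were required. Of 7 resident macrophage genes 5 were higher (median 0.15), among them Selenop (0.35, or 0.13) and Ccl8 (0.17, or 0.11). With the local zero level subtracted, 3 of 6 resident genes were higher and 2 lower. Over all 570 genes on that scale 22.1% were higher and 8.95% lower.

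Among MHC class II genes the median difference was 0.13, with 3 of 5 at least 0.1 higher, against 17.0% of all 696 genes. H2-Eb1 was 0.28 and H2-DMb1 0.22, while H2-Aa was 0.05. Ciita, which switches these genes on, was 0.07 by deposited values and -0.20 with the local zero level subtracted, and was the only one of the 5 with that value. Leaving out the Spic or Slc40a1 cells moved the median to 0.23.

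Genes lower in cKO members were led by AA467197 (-0.36) and C3ar1 (-0.35). C3ar1 had a mean of 1.36 ± 2.15 in fl/fl and 1.01 ± 2.13 in cKO (SD over cells), and the difference was -0.27 without the Spic or Slc40a1 cells. Ccr2, the receptor by which monocytes enter tissue, was 0.90 ± 1.29 in fl/fl and 0.63 ± 1.03 in cKO, a difference of -0.27 (-0.29 without shared barcodes). It was above 1 in 34.3% of fl/fl (29.8% to 39.0%) and 23.7% of cKO members (18.8% to 29.1%). Tgfbi, another gene of recent monocyte descent, was -0.20, with 46.2% and 37.1% above 1. For C3ar1, Ccr2 and Tgfbi no value with the local zero level subtracted is given. The number of lower genes depended on the scale, with 79 by deposited values and 14 with values held between 0 and the 99th percentile. Holding at 0 can raise cKO values only. Of 13 genes of monocyte-derived cells 3 were lower and 1 higher, against 11.4% and 17.0% of all 696 genes, and the median was -0.02. Isg15, an interferon-induced gene, was -0.19, or -0.21 with the local zero level subtracted, but of 14 interferon response genes 1 was lower and 2 higher. With the local zero level subtracted, 5 of 12 interferon response genes were lower and none higher, against 8.95% lower and 22.1% higher over all genes on that scale.

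Several of the lowest deposited values did not keep their sign when the local zero level was subtracted, which was done in cKO only. Htra2 was -0.31 and 0.10 with the local zero level subtracted, Ccl12 -0.30 and 0.06, Ubac1 -0.29 and 0.14, the lipoprotein lipase gene Lpl -0.27 and 0.10, the complement gene C4b -0.26 and 0.13, and Pltp, a lipid transfer protein gene, -0.26 and 0.14. Cysltr1, a leukotriene receptor gene, was -0.26 and -0.10, and Ass1, an enzyme of arginine synthesis, -0.22 and -0.18. C4b was above 1 in 8.45% of fl/fl and 8.48% of cKO members. The 4 complement genes outside C1q, with 1 higher and 2 lower, had a median of -0.17 by deposited values and 0.01 over the 3 with the local zero level subtracted.

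**Figure D5:**
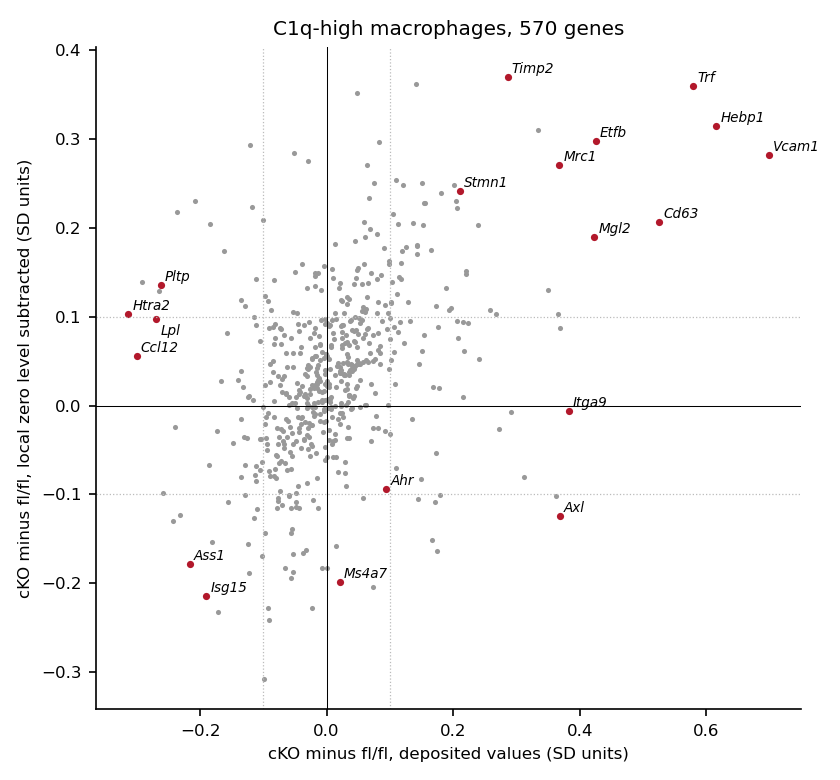
Difference in mean scaled value, cKO minus fl/fl, of C1q-high macrophages for 570 genes. The x axis gives deposited values (SD units). On the y axis (SD units) the local zero level was subtracted from cKO values only. Each point is a gene, dotted lines mark 0.1, and Trf (0.58 and 0.36) lies high on both while Htra2 (-0.31 and 0.10) and Axl (0.37 and -0.12) change sign.

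The remaining groups had medians near zero by deposited values. The 9 alternative activation genes had a median of 0.00 with 3 higher and 1 lower, and Arg1 differed by 0.00. The 11 lipid-associated genes had 0.04 with 4 higher and 2 lower, and the 11 adhesion genes 0.03 with 4 higher and none lower. Over all 696 genes 17.0% were higher and 11.4% lower. The median was 0.01 for the 8 inflammatory mediator genes, 0.01 for the 7 arginine genes and 0.00 for the 10 dissociation and stress genes. It was -0.04 for the 9 hypoxia and glycolysis genes and -0.07 for the 16 chemokine genes, with 4 chemokine genes higher and 4 lower. The 6 cell cycle genes had 0.08, with Stmn1, a tubulin-binding protein gene of dividing cells, at 0.21, or 0.24 with the local zero level subtracted. With the local zero level subtracted, 4 of 12 chemokine genes were lower and 1 higher, and 3 of 6 hypoxia and glycolysis genes were lower and none higher. Over all 570 genes on that scale, 8.95% were lower and 22.1% higher. The chemokine median was then -0.05 and the hypoxia and glycolysis median -0.10, against 0.04 over the 570 genes.

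Ahr itself had a mean of 0.35 ± 1.15 in fl/fl and 0.44 ± 0.94 in cKO members, a difference of 0.09, or -0.09 with the local zero level subtracted. It was above 1 in 10.1% (7.40% to 13.4%) and 8.13% (5.22% to 11.9%). The exons removed by Cre are not given, and counts of one end of a transcript need not reach them, so these values do not check the deletion. Lyz2, whose locus drives the Cre, differed by -0.02. Of 12 genes listed as linked to the receptor 3 were measured. Cyp1b1 and Scin were above zero in 0 of 426 fl/fl members. By a limit of 3 cells, a count of 0 allows up to 0.704% of cells with a value above zero, which does not limit the share of cells expressing the gene. Il4i1, whose enzyme makes ligands of the receptor, was above zero in 1.88%.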

How the data were processed

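Single-cell RNA was measured in 2 libraries of live cells from mouse tumors, 1 per genotype, each of 3 pooled tumors. For 2000 genes the authors deposited a scaled score in every cell, between -25.9 and 10, together with UMAP coordinates. The submitters' processing notes name Seurat 3.1.4, Cell Ranger 3.0.0 and the build mm10/GRCm38, without role or order. Filters on cells and doublet removal are not given in the sources used here.

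Cells were assigned to libraries by the end of their name. The lowest fl/fl value of each gene was subtracted. The work used scikit-learn 1.9.0, scipy 1.17.1, pandas 2.3.3, matplotlib 3.10.9 and numpy 2.4.6 in Python 3.11.15. A gene counted as above zero from 0.0001. T cells had at least 2 T cell receptor complex, Cd8a or Cd8b1 genes above 1, and T cell shares leave out members. Monocytes had Ccr2 and Ly6c2, Plac8, Chil3 or Vcan above 1 and no C1q, Arg1, Csf3r or Cxcr2, and fewer than 2 keratins. Neighbours for the local zero level came from 30 principal components, and the level was subtracted in cKO members only. This step was run on simulated data made from fl/fl cells, with a shift built from the same components. That simulation cannot show how well the step suits the cKO library. UMAP groups joined cells within 0.35 that had 15 neighbours.

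Intervals are exact Clopper-Pearson 95% intervals, and that of the share difference is Newcombe's. A count of 0 is given with a limit of 3 counts. With 1 library per genotype no test was made. The genes named were Ahr, Lyz2, Apoe and the rule's genes, the 10 highest and 10 lowest differences among genes in at least 5% of fl/fl members, up to 4 genes of each list by difference and by share, and the 12 most above and below each comparison set. Other genes named, among them Vegfa, Csf1r, Cela1 and those of the Arg1 and C1q splits, were chosen after their values were seen. Some genes are not reported here. The members and gene lists were chosen with earlier results of these data known. Alternatives were other levels and gene numbers for the rule, Apoe or doublet limits, filters on low genes, values held between 0 and the 99th percentile, the local zero level, matched depth and other call limits. Leaving out shared barcodes, weighting Arg1 classes equally and leaving out Spic or Slc40a1 cells were chosen after seeing the data.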

Additional observations from a re-analysis of the deposited data

How the results depend on the processing

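No paired analysis was possible because each genotype has 1 library, and for the same reason no library could be left out. The share difference of -2.02 points was -0.61 with all 3 C1q genes and -0.0798 with Apoe above 1, and stayed between -2.81 and -1.25 under the other alternatives. Genes higher in cKO went from 118 to 64 with a filter of 20% of cells, which tests fewer genes. Genes lower went from 79 to 43 with that filter, 145 with Apoe above 1, 51 with the local zero level subtracted and 14 with values held between 0 and the 99th percentile. Held values cannot lie below the fl/fl zero level, and this limit can raise cKO values only. Under the other alternatives both counts stayed within 1.5 times.

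Against Arg1 cells, 78 genes were higher and 102 lower from 0.25, and 63 were lower at middle depth. Against monocytes, 137 were higher and 44 lower from 0.25, and 8 were lower at a rule level of 0.5.

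With the local zero level subtracted, the complement median was 0.0097, MHC class II -0.204 from 1 gene and scavenger receptors 0.0394. With held values, complement was 0.0109 and alternative activation 0.126. Complement was -0.064 with no filter. With all 3 C1q genes, Fc receptors were -0.0022 and scavenger receptors 0.0774, and at a rule level of 0.5 Fc receptors were 0.224. With Apoe above 1, scavenger receptors were 0.0372, resident macrophage genes 0.0136, iron and heme 0.131, arginine -0.132, C-type lectins 0.191 and hypoxia and glycolysis -0.151. Without Spic or Slc40a1 cells, MHC class II was 0.233 and iron and heme 0.0572. The cause of these moves was not tested.

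The scores hold no molecule counts, so precision is limited by the number of cells, and spread between mice was not measured. The same level of 1 picks cells on a moved scale in the cKO library.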
